A study of Mus musculus with 14 samples.

Results

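The lysosomal cathepsins measured here were 10 genes that encode proteases of the lysosome, namely Ctsa, Ctsb, Ctsc, Ctsd, Ctsh, Ctsk, Ctsl, Ctss, Ctsz and Lgmn, in the livers of mice on 3 diets. Their probes were found by the gene name in the scanner files or by the current symbol of the probe's accession. This gave 14 probes for the 10 genes. The array held 36096 genes as counted here, and 15940 of them had a current symbol. A probe without one was counted as a gene under its own name. All 14 probes were well above background in the liver channel on every array, and none was saturated there, so all 10 genes were among the 32677 tested. Where a gene had several probes, which was so for Ctsa, Ctsd and Ctsz, the brightest one stood for the gene.

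All mice were male C57BL/6 animals, 1 year old, that ate freely. One group of 4 had a high-calorie version of the AIN-93G diet, with 60% of calories from fat, to which 0.04% resveratrol, a polyphenol made by plants, was added. A second group of 5 had the same high-calorie diet without resveratrol, and the other 5 had the standard AIN-93G diet. Each array carried 1 animal's liver RNA in Cy3 and a pool of RNA from 5 standard-diet livers in Cy5, always in that dye order, and every value below is log2 of Cy3 over Cy5. A gene's own dye bias is therefore part of its ratio, also in livers on the standard diet, and cancels only in a difference between diets.

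Lysosomal proteases are made as inactive precursors, carried to the lysosome and activated in its acid interior, where they break down proteins delivered by autophagy and endocytosis. Most cathepsins are cysteine proteases, cathepsin D is an aspartic protease, cathepsin A a serine carboxypeptidase, and legumain cuts after asparagine and matures several of the others. In liver, hepatocytes and the resident macrophages, the Kupffer cells, both have many lysosomes, and macrophages use cathepsin S and legumain to prepare peptides for presentation on MHC class II.

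Between 77.8% and 92.4% of probes were well above background in Cy3 on an array. In a principal component analysis of all genes, in which the first component held 33.8% of the variance, resveratrol liver 3 lay at -31.3 on the second component, apart from all other livers. Standard-diet liver 5 lay at 3.8 on the first, away from the other 4 of its diet, which ran from -26.1, in liver 2, to -13.5. The arrays fell into batches that overlap the diets in part: the image files were processed on 2 days, with all 4 resveratrol arrays on the first, and the slides came from 2 barcode series, with all 5 standard-diet arrays in the second. For the members called, values within those batches and without single livers are given where a call changed. In whole liver, fewer cells of a type and less RNA per cell cannot be told apart.

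In livers on the high-calorie diet, 3 of the 10 cathepsins rose relative to the standard diet: Ctss by 2.11-fold, Lgmn by 1.61-fold and Ctsd by 1.37-fold (limma, Benjamini-Hochberg adjustment over all genes tested). No member fell, and 7 did not pass. Of all genes tested 9.43% passed in this comparison, 5.37% as higher and 4.07% as lower. In the same comparison, the median log2 difference of the 10 members was 0.053, against -0.0021 for all genes. At an unadjusted p under 0.05 stood 40% of the members, beside 27.6% of all genes. With the Cy3 brightness of the arrays as a covariate 0 of the 10 passed (limma adjusted p = 0.0614, 0.138 and 0.192 for Ctss, Lgmn and Ctsd), with differences of 0.86, 0.54 and 0.33. With that covariate 858 of all genes passed. Of all calls in this comparison 56.9% were higher, against 79.0% with median centring, 72.7% with Cy3 alone and 80.1% in the deposited scores. The plot of all members by liver shows these values.

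**Figure D1:**
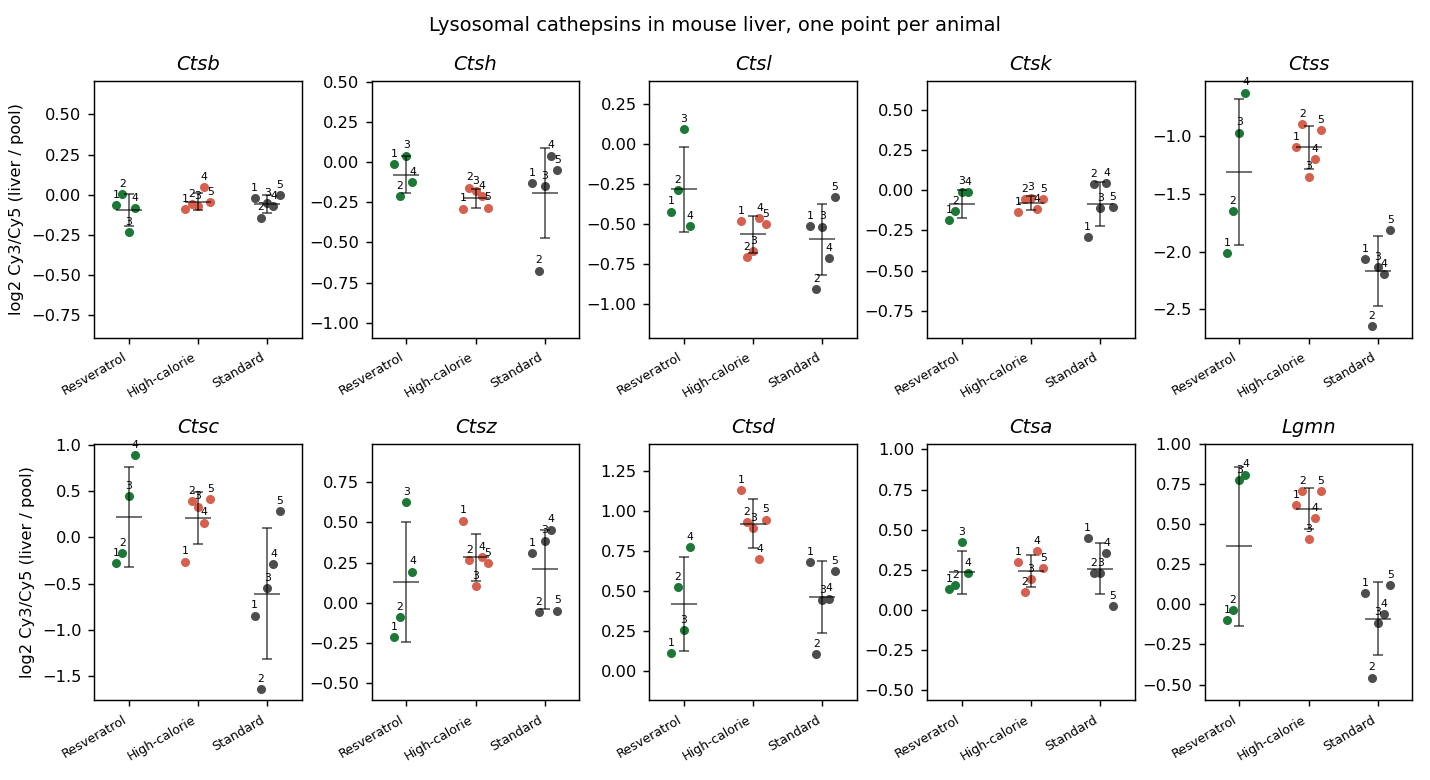
Each panel plots 1 cathepsin gene, with the log2 ratio of liver RNA (Cy3) to the pool (Cy5) on the vertical axis and the diet on the horizontal axis; points are single livers numbered by replicate, and the black bar is the mean with its SD. Axes are not shared between genes. For Ctss, Lgmn and Ctsd all 5 high-calorie livers lie above all 5 standard-diet livers, and the resveratrol livers are spread over both. The share of all genes without overlap between these diets was not counted.

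Cathepsin S, a cysteine protease abundant in macrophages and other antigen-presenting cells, had the largest difference of the 10. Its log2 ratio was -1.09, -0.89, -1.35, -1.20 and -0.95 in the high-calorie livers, against -2.06, -2.65, -2.14, -2.20 and -1.81 in the standard-diet livers. The highest standard-diet liver was thus below the lowest high-calorie liver, and the groups did not overlap. How many of all genes were without overlap between these diets was not counted, here or for the genes below. The means were -1.10 ± 0.19 on the high-calorie diet and -2.17 ± 0.30 on the standard diet (SD, n = 5 each), a log2 difference of 1.08 ± 0.22 (SE; limma adjusted p = 0.00967; 95% interval 0.60 to 1.55). Within the first processing day the Ctss difference was 0.99 (limma adjusted p = 0.143) and within the second 1.17 (limma adjusted p = 0.242), with fewer arrays in each. Without background correction the Ctss difference was 0.47 (limma adjusted p = 0.0385).

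Legumain, the asparaginyl endopeptidase encoded by Lgmn, processes other cathepsins and antigens. Lgmn had log2 ratios of 0.62, 0.71, 0.41, 0.54 and 0.71 in the high-calorie livers, against 0.068, -0.46, -0.11, -0.063 and 0.12 in the standard-diet livers. All 5 high-calorie livers were above all 5 standard-diet livers. Lgmn averaged 0.59 ± 0.13 on the high-calorie diet and -0.090 ± 0.23 on the standard diet (SD, n = 5 each), with a difference of 0.68 ± 0.17 (SE; limma adjusted p = 0.0248). This call was lost in 6 of the 14 single-liver omissions, while the difference ran from 0.59 to 0.69 in those 6. The limma adjusted p of Lgmn was 0.0542, 0.0593 and 0.0662 without high-calorie livers 1, 2 and 5 in turn. It was 0.0510, 0.0577 and 0.05001 without standard-diet livers 2, 3 and 4. Within the first processing day the Lgmn difference was 0.61 (limma adjusted p = 0.231), and within the second 0.78 (limma adjusted p = 0.263). With the slide series as a block the Lgmn difference was 0.61 (limma adjusted p = 0.0718), and without background correction it was 0.35 (limma adjusted p = 0.0279).

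Cathepsin D is the main aspartic protease of the lysosome. By its brighter probe, Ctsd had log2 ratios of 1.13, 0.93, 0.90, 0.70 and 0.95 in the high-calorie livers, against 0.68, 0.11, 0.45, 0.45 and 0.63 in the standard-diet livers. These groups did not overlap either, but high-calorie liver 4 lay only just above standard-diet liver 1. Ctsd averaged 0.92 ± 0.15 on the high-calorie diet and 0.46 ± 0.22 on the standard diet (SD, n = 5 each), a difference of 0.46 ± 0.13 (SE; limma adjusted p = 0.0387). The Ctsd call was lost without any one of high-calorie livers 1, 2, 3 and 5 (limma adjusted p = 0.0889, 0.0768, 0.0619 and 0.0883) and without any one of standard-diet livers 2, 3 and 4 (limma adjusted p = 0.0738, 0.0800 and 0.0741). Within the first and second processing days the Ctsd differences were 0.39 and 0.56 (limma adjusted p = 0.291 and 0.311). With the slide series as a block the Ctsd difference was 0.48 (limma adjusted p = 0.0662), and within the second series it was 0.46 (limma adjusted p = 0.0742). From the Cy3 channel alone it was 0.25 (limma adjusted p = 0.439).

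The second Ctsd probe, which was dimmer on average, did not show this difference. It read 0.62, 0.61, 0.47, 0.52 and 0.50 in the high-calorie livers and 0.46, 0.25, 0.71, 0.55 and 0.41 in the standard-diet livers, so that the groups overlapped. Its difference was 0.071 ± 0.081 (SE; limma adjusted p over all probes = 0.630), and with the mean of both probes the Ctsd difference was 0.26 (limma adjusted p = 0.0823). Which of the probes follows the Ctsd transcript more closely was not tested.

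**Figure D2:**
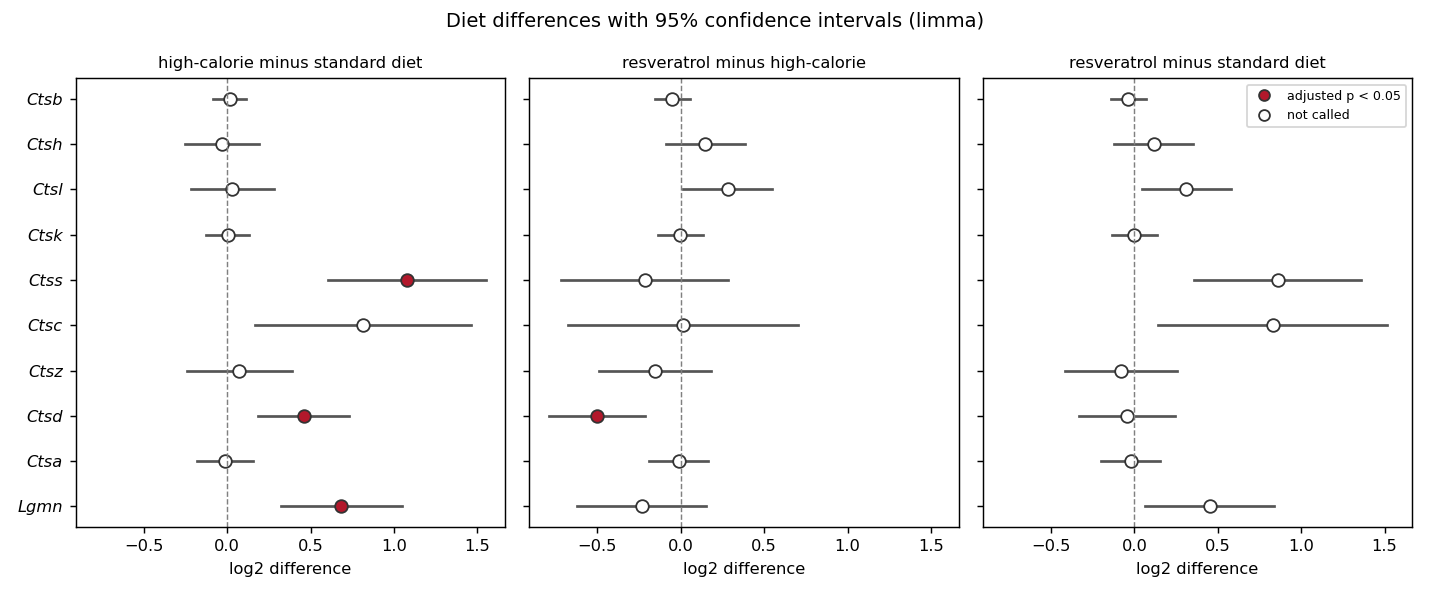
Log2 differences of the 10 cathepsins on the horizontal axis, with 95% confidence intervals as lines, for the 3 diet comparisons named above the panels; filled points have a limma adjusted p under 0.05. Ctss, Lgmn and Ctsd are filled on the right of 0 for high-calorie minus standard diet, Ctsd is filled on the left of 0 for resveratrol minus high-calorie, and no point is filled for resveratrol minus standard diet.

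Cathepsin C, the dipeptidyl peptidase that activates serine proteases of neutrophils and other leukocytes, had the second largest difference but did not pass. Ctsc read -0.26, 0.39, 0.33, 0.16 and 0.42 in the high-calorie livers and -0.85, -1.64, -0.55, -0.29 and 0.29 in the standard-diet livers. Standard-diet liver 5 lay among the high-calorie livers and standard-diet liver 2 far below the others. The Ctsc difference was 0.81 ± 0.30 (SE; limma adjusted p = 0.0996; 95% interval 0.17 to 1.46). Without standard-diet liver 5 it was 1.04 (limma adjusted p = 0.0219). This was the only one of the 14 single-liver omissions that changed the Ctsc call. Without standard-diet liver 2 the Ctsc difference was 0.56 (limma adjusted p = 0.189). With Cy3 brightness as a covariate it was 0.44 (limma adjusted p = 0.406).

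By the probes that stood for them, the other 6 members differed by at most 0.073 on the log2 scale between the high-calorie and standard diets. Among the cysteine proteases found in most cells, Ctsb differed by 0.014 (95% interval -0.085 to 0.11), Ctsh by -0.031 (-0.26 to 0.19) and Ctsl by 0.032 (-0.22 to 0.28). A much brighter probe, described only as cathepsin B and outside the member rule, differed by 0.35 ± 0.11 (SE; limma adjusted p over all probes = 0.0728). Ctsk, best known as the collagen-degrading cathepsin of osteoclasts, differed by 0.0031 (-0.13 to 0.13). Ctsz, a carboxypeptidase, differed by 0.073 (-0.24 to 0.39) and Ctsa, which also protects beta-galactosidase and neuraminidase in the lysosome, by -0.012 (-0.18 to 0.16). For none of the 6 does the interval hold the fitted difference of Ctss or Lgmn; whether members differ from each other was not tested. Over all 14 livers the log2 ratio ran from -0.23 to 0.049 for Ctsb, from -0.67 to 0.042 for Ctsh, from -0.91 to 0.091 for Ctsl, from -0.29 to 0.044 for Ctsk, from -0.21 to 0.62 for Ctsz and from 0.024 to 0.45 for Ctsa. The 3 diets overlapped in each of these 6 genes. In the gene table of GRCm38.p6, Ctsk and Ctss are next to each other on chromosome 3 with 0 protein-coding genes between them.

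The windows just before the start sites of the 3 genes that rose are shown because these genes rose together on the high-calorie diet. RefSeq windows were matched for 8 of the 10 members, all but Ctsb and Ctsh. Each sequence is the 250 bases before the start, read 5′ to 3′ on the gene's strand, from build GRCm38.p6: chr3:95526536-95526785 (plus strand) for Ctss, chr12:102439729-102439978 (minus strand) for the first of both Lgmn starts, and chr7:142387828-142388077 (minus strand) for Ctsd. Capitals mark matches to CACGTG, the core of the element bound by the lysosomal regulator TFEB, and to GAAA followed by any 2 bases and GAAA again, a core of elements bound by interferon regulatory factors. Both were searched on both strands, do not overlap each other in these windows, and were chosen with the sequences in view.
Ctss: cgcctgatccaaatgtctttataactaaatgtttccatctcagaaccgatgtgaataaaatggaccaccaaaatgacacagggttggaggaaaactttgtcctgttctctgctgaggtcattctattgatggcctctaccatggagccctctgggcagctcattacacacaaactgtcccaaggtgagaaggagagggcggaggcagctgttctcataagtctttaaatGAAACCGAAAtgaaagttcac
Lgmn: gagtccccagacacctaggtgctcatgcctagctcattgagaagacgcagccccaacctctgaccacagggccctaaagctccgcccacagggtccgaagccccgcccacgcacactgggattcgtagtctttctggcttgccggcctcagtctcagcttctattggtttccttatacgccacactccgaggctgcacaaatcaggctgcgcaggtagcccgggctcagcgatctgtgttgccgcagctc
Ctsd: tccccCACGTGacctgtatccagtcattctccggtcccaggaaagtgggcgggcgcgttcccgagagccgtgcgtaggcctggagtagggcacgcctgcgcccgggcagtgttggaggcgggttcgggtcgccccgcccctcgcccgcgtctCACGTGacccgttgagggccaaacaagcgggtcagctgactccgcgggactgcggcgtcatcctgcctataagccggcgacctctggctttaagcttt

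The Ctss window held the GAAA repeat once, beginning 21 bases before the start, and no CACGTG. Of all 32851 promoter windows of this length, 2.98% held the GAAA repeat, and no other member window did. Ctsd held CACGTG at 245 and 98 bases before its start, and the printed Lgmn window held neither motif. One CACGTG each stood in the window of Ctsl and in those of the second starts of Ctsa and Lgmn, so that 4 of the 10 member windows held it, beside 6.02% of all windows. A match describes letters in this window and is no measurement of binding, and Ctsl and Ctsa, which have CACGTG, did not pass in this comparison.

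Resveratrol added to the high-calorie diet went with a lower level of 1 cathepsin, Ctsd, by its brighter probe, relative to the high-calorie diet alone. No member rose, and 9 did not pass. Of all genes tested, 5.39% passed in this comparison, 3.16% as higher and 2.22% as lower, and 22.2% had an unadjusted p under 0.05. This balance turned with the scaling: 58.7% of all calls were higher here, against 25.8% with median centring, 26.2% with Cy3 alone and 33.3% in the deposited scores. The median log2 difference of the members was -0.031 and that of all genes was -0.0068. High-calorie livers stand in both this comparison and the previous one, so opposite signs in the 2 are not independent.

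Ctsd read 0.12, 0.52, 0.26 and 0.78 in the resveratrol livers, against 1.13, 0.93, 0.90, 0.70 and 0.95 in the high-calorie livers. Resveratrol liver 4 lay above high-calorie liver 4, so the groups overlapped, while the other 3 resveratrol livers were below every high-calorie liver. The mean was 0.42 ± 0.29 with resveratrol (SD, n = 4) and 0.92 ± 0.15 without (SD, n = 5), a difference of -0.50 ± 0.13 (SE; limma adjusted p = 0.0456). The second Ctsd probe read 0.17, 0.44, 0.54 and 0.49 in the resveratrol livers and 0.62, 0.61, 0.47, 0.52 and 0.50 in the high-calorie livers, a difference of -0.14 ± 0.086 (SE; limma adjusted p over all probes = 0.406). Adjusted over all probes in the same way, the brighter Ctsd probe did not pass either (limma adjusted p over all probes = 0.0511).

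The fall of Ctsd was near the threshold, and the call was lost in 9 of the 14 single-liver omissions, while the difference ran from -0.40 to -0.54 in those 9. Its limma adjusted p was 0.154, 0.0592 and 0.120 without resveratrol livers 1, 2 and 3, and 0.103, 0.0873, 0.0744 and 0.0984 without high-calorie livers 1, 2, 3 and 5. Leaving out standard-diet liver 3 or 4, which enter only through the shared spread, gave a limma adjusted p of 0.0597 or 0.0594 for Ctsd. Within the first processing day the Ctsd difference was -0.50 (limma adjusted p = 0.235), and within the slide series it was -0.53 and -0.40 (limma adjusted p = 0.394 and 0.573).

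Ctss, Ctsc and Lgmn split the resveratrol livers. In resveratrol livers 1 to 4, Ctss read -2.02, -1.65, -0.97 and -0.62, against -1.35 to -0.89 in the high-calorie livers. Lgmn read -0.098, -0.037, 0.77 and 0.81, against 0.41 to 0.71 in the high-calorie livers. For Ctsc the values were -0.28, -0.17, 0.44 and 0.89, against -0.26 to 0.42 in the high-calorie livers. For Ctss and Lgmn, resveratrol livers 1 and 2 were below every high-calorie liver, and for Lgmn livers 3 and 4 were above every one of them. None of the 3 genes passed: their differences from the high-calorie diet were -0.22 ± 0.23, -0.23 ± 0.18 and 0.014 ± 0.32 for Ctss, Lgmn and Ctsc (SE; limma adjusted p = 0.630, 0.485 and 0.987). Single livers set these values: without resveratrol liver 1 the differences of Ctss, Lgmn and Ctsc were 0.017, -0.080 and 0.18, and without resveratrol liver 4 they were -0.45, -0.38 and -0.21. Without resveratrol liver 2 they were -0.11, -0.10 and 0.14, and without resveratrol liver 3 they were -0.33, -0.37 and -0.060.

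Macrophage markers are given beside these values. The mean log2 ratio of 22 markers, among them Adgre1, Cd68 and Clec4f, was -0.67, -0.65, -0.064 and 0.23 in resveratrol livers 1 to 4, and ranged from -0.45 to -0.22 in the high-calorie livers and from -0.76 to -0.51 in the standard-diet livers. Resveratrol livers 3 and 4 were thus the highest of all 14 in the markers, and the high-calorie livers all lay above the standard-diet livers. By single markers, 0 of 22 passed between the high-calorie and standard diets at an adjusted p under 0.05 (limma) and 10 had an unadjusted p under 0.05, 8 of them higher and 2 lower, beside 27.6% of all genes. The 2 lower ones were Cd163, a scavenger receptor, at -0.41, and Csf1r, the receptor for macrophage colony-stimulating factor, at -0.13. Both are named after their values were seen. Of the 22, 18 had a positive difference and the median was 0.17. C1qc, a subunit of complement C1q, and Lyz2, a lysozyme, came nearest with 0.90 ± 0.30 and 0.98 ± 0.35 (SE; limma adjusted p = 0.0718 and 0.0895). Between resveratrol and high-calorie livers 1 of 22 passed, beside 5.39% of all genes: Csf1r, at 0.28 ± 0.056 (SE; limma adjusted p = 0.0149). All 22 markers were among the genes tested, and their part in the cathepsin values was not tested.

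**Figure D3:**
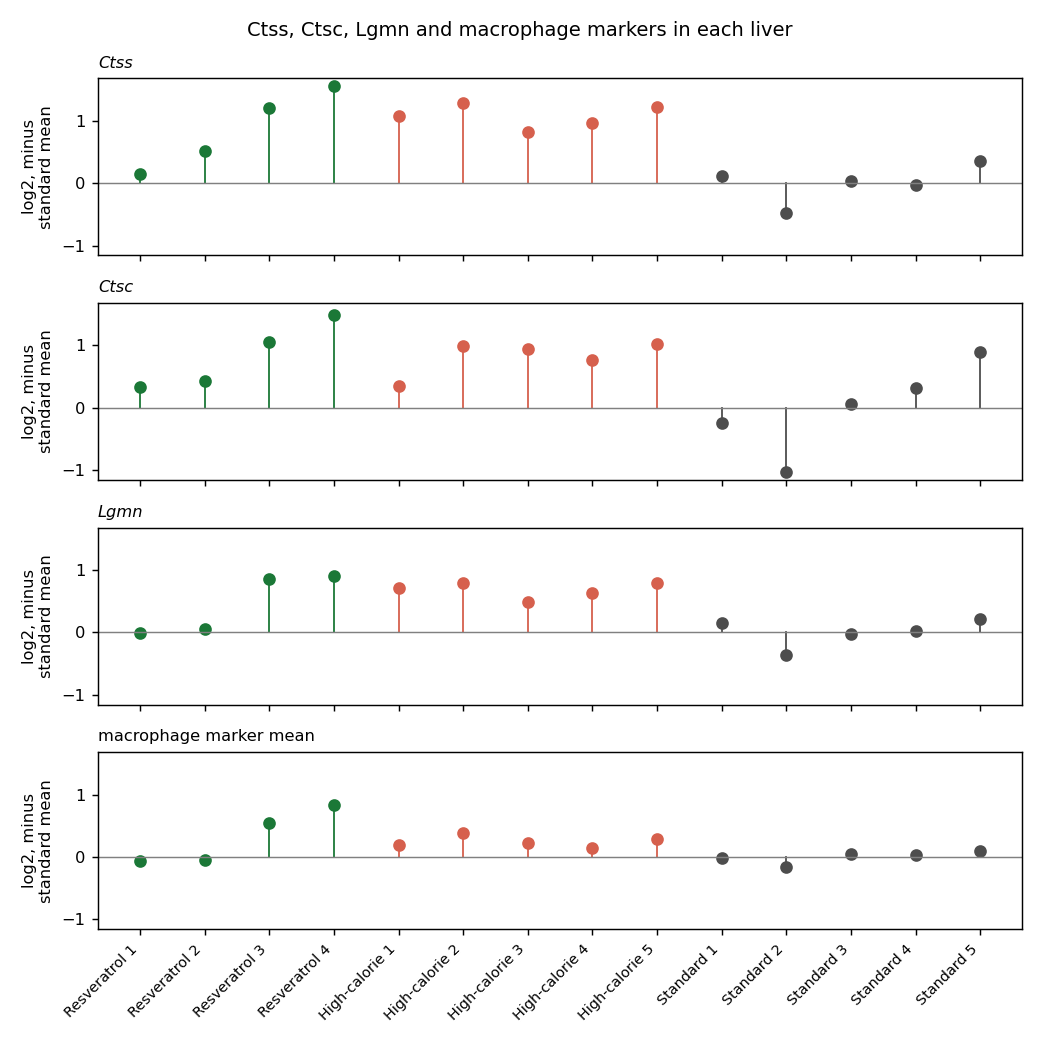
Log2 ratios of Ctss, Ctsc, Lgmn and the mean of the 22 macrophage markers in each of the 14 livers (horizontal axis), minus the mean of the standard-diet livers (vertical axis, log2). Resveratrol livers 3 and 4 lie above resveratrol livers 1 and 2 in all 4 panels, and the high-calorie livers lie above 0 in each. For Ctss, resveratrol liver 3 is within the range of the high-calorie livers, and for Ctsc so is resveratrol liver 2. Ctsd is not plotted, and it read 0.52 in resveratrol liver 2 and 0.26 in resveratrol liver 3 (log2 ratios).

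Ctsl, which has broad activity against lysosomal substrates, read -0.42, -0.29, 0.091 and -0.51 in the resveratrol livers and -0.48, -0.70, -0.67, -0.46 and -0.50 in the high-calorie livers. Resveratrol liver 4 lay below 3 of the high-calorie livers, and liver 3 far above all of them. The Ctsl difference of 0.28 ± 0.12 (SE) had an unadjusted p of 0.0396 and a limma adjusted p of 0.200. Without resveratrol liver 3 it was 0.16 (limma adjusted p = 0.482). Ctsz read -0.21, -0.092, 0.62 and 0.19 in the resveratrol livers, against 0.51, 0.27, 0.10, 0.28 and 0.25 in the high-calorie livers, so that resveratrol livers lay on both sides of the high-calorie ones. The Ctsz difference was -0.15 (95% interval -0.49 to 0.18). The remaining 4 members, Ctsa, Ctsb, Ctsh and Ctsk, had differences between -0.051 and 0.15.

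Relative to the standard diet, 0 of the 10 cathepsins passed in livers on the high-calorie diet with resveratrol (limma), where 0.214% of all genes tested passed. At an unadjusted p under 0.05 stood 4 of the 10, or 40%, beside 10.6% of all genes, all 4 with a positive difference. Ctss had a difference of 0.86 ± 0.23 (SE; limma adjusted p = 0.176; 95% interval 0.36 to 1.36), Ctsc of 0.83 ± 0.32 (limma adjusted p = 0.384), Lgmn of 0.45 ± 0.18 (limma adjusted p = 0.399) and Ctsl of 0.31 ± 0.12 (limma adjusted p = 0.394). Only resveratrol livers 2, 3 and 4 lay above the highest standard-diet liver for Ctss, which read -1.81, and only livers 3 and 4 did so for Lgmn. Ctsd differed by -0.045 (95% interval -0.33 to 0.24). The median of the 10 members was 0.058, against 0.00045 for all genes. The standard-diet livers, and through the high-calorie comparison all diets, are shared between these 3 comparisons, so their members' values are given side by side and not compared further.

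Probes of a gene did not always read alike, as the plot of every probe shows. A probe described only as cathepsin B, on a cDNA accession without a current symbol and therefore outside the 14, read 0.23, 0.13, 0.25, 0.30 and 0.22 in the high-calorie livers and -0.15, -0.54, -0.12, 0.10 and 0.077 in the standard-diet livers. Those groups did not overlap, yet the difference of 0.35 ± 0.11 did not pass (SE; limma adjusted p over all probes = 0.0728), while the probe named Ctsb differed by 0.014. The mean log2 intensity over both channels was 11.95 for the probe known by description and 7.68 for the probe named Ctsb. Which of them follows the Ctsb transcript more closely was not tested. A probe described as the protective protein for beta-galactosidase, the product of Ctsa, was higher with resveratrol than on the high-calorie diet by 0.39 ± 0.081 (SE; limma adjusted p over all probes = 0.0195). It read 0.16, -0.049, 0.044 and -0.072 in the resveratrol livers and -0.45, -0.27, -0.37, -0.32 and -0.42 in the high-calorie livers, without overlap. The 3 probes named for Ctsa had differences between -0.014 and -0.0033 in that comparison. Both Ctsz probes differed little, by 0.073 and 0.10 between the high-calorie and standard diets.

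**Figure D4:**
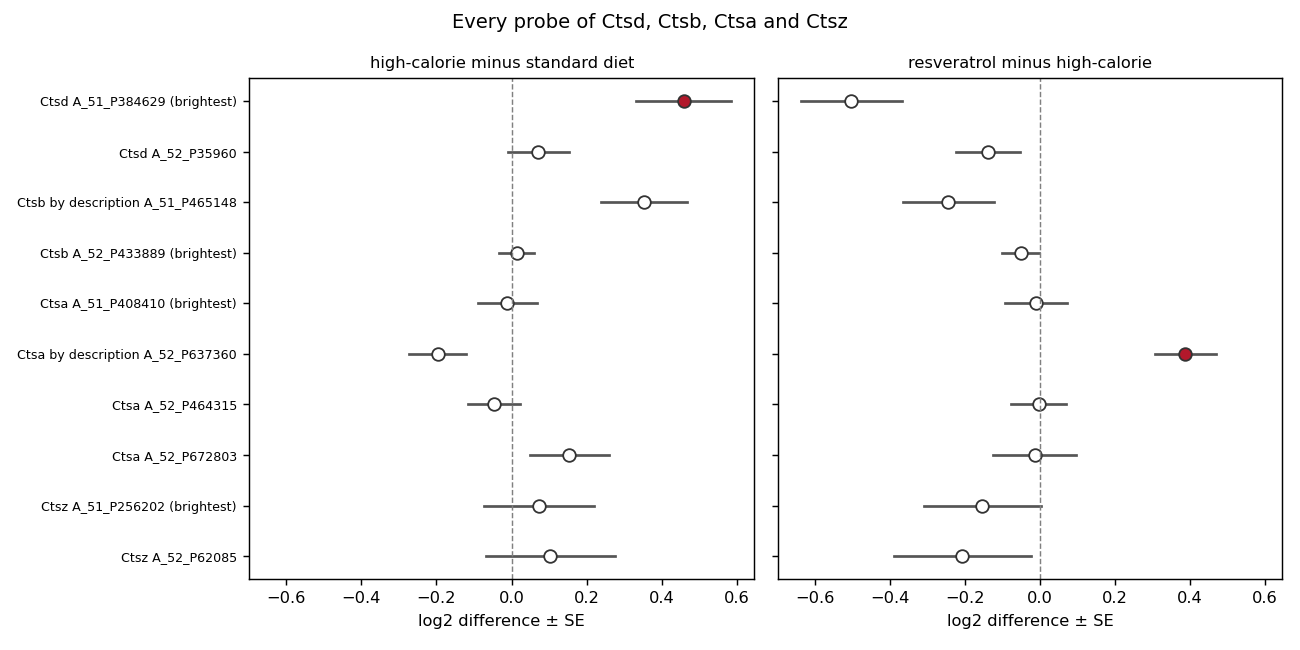
Log2 difference (horizontal axis) with its SE for every probe of Ctsd, Ctsb, Ctsa and Ctsz, high-calorie minus standard diet on the left and resveratrol minus high-calorie on the right; filled points have a limma adjusted p over all probes under 0.05. The brighter Ctsd probe is far from 0 in both panels and the second one near it, and the Ctsa probe named by description is the 1 filled point on the right.

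The rest of the lysosome was described by lists of its other parts. Of all genes tested, 5.37% passed as higher and 4.07% as lower on the high-calorie diet relative to the standard diet. With resveratrol relative to the high-calorie diet 3.16% passed as higher and 2.22% as lower. These shares stand beside the counts of all lists below. A list of 34 genes held lysosomal hydrolases that are not proteases, with activator proteins and an acetyltransferase. Of these genes, 6 rose and 28 did not pass on the high-calorie diet relative to the standard diet, with a median difference of 0.046. Hexa, which takes part in the breakdown of gangliosides, had a difference of 0.95 ± 0.12 (SE; limma adjusted p = 0.000443). Manba, a beta-mannosidase, and Gusb, a beta-glucuronidase, differed by 0.29 ± 0.065 and 0.38 ± 0.086 (SE; limma adjusted p = 0.0165 and 0.0170). With resveratrol 2 of the 34 fell relative to the high-calorie diet, among them Hexa, by 0.55 on the log2 scale (limma adjusted p = 0.0288).

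Of 12 genes of lysosomal membrane and cholesterol-transport proteins, 2 rose on the high-calorie diet relative to the standard diet. They were Laptm4b, by 0.43 ± 0.094, and Npc1, the cholesterol exporter, by 0.31 ± 0.089 (SE; limma adjusted p = 0.0125 and 0.0454). The median of the 12 was 0.22. With resveratrol 0 of the 12 passed against the high-calorie diet (limma), 5 had an unadjusted p under 0.05, beside 22.2% of all genes, and all 12 differences were negative with a median of -0.16. Of all genes 47.3% had a positive difference. Of 16 proton pump subunits, which acidify the lysosome, 2 rose on the high-calorie diet, beside 5.37% of all genes. They were Atp6v1h, by 0.46 ± 0.093, and Atp6v1d, by 0.40 ± 0.12 (SE; limma adjusted p = 0.00886 and 0.0471). Atp6v1h fell with resveratrol relative to the high-calorie diet, by 0.46 (limma adjusted p = 0.0190), as the 1 of 16, beside 2.22% of all genes.

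Of 8 genes for sorting receptors, enzymes of the mannose 6-phosphate mark and transcription factors of lysosomal genes, 2 rose on the high-calorie diet. In that comparison 5.37% of all genes passed as higher. M6pr, a mannose 6-phosphate receptor, and Nagpa, the enzyme that uncovers the mannose 6-phosphate mark, rose by 0.20 ± 0.055 and 0.24 ± 0.063 (SE; limma adjusted p = 0.0401 and 0.0315). Sort1, the sorting receptor sortilin, rose with resveratrol relative to the high-calorie diet, by 0.24 ± 0.054 (SE; limma adjusted p = 0.0225). Of 10 genes of the MHC class II route, 4 rose on the high-calorie diet and 6 did not pass: H2-DMb1 by 0.49, H2-Ab1 by 0.48, Cd74, the invariant chain that cathepsin S cuts, by 0.40 and H2-Eb1 by 0.23 (limma adjusted p = 0.00585, 0.0104, 0.0229 and 0.0478). With resveratrol 0 of the 10 passed against the high-calorie diet (limma) and 3 had an unadjusted p under 0.05, 1 of them higher and 2 lower, beside 22.2% of all genes. The lower ones were H2-DMb1 and H2-Ab1, at -0.30 and -0.27 (limma adjusted p = 0.0909 and 0.144), and the higher one, named after its value was seen, was Ifi30, a lysosomal thiol reductase, at 0.20 (limma adjusted p = 0.219).

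Cathepsin inhibitors went both ways. Cstb and Cst3, which encode cystatins B and C, rose on the high-calorie diet relative to the standard diet by 0.48 ± 0.091 and 0.33 ± 0.094 (SE; limma adjusted p = 0.00622 and 0.0437). Kng1, the kininogen secreted by hepatocytes that also carries cystatin domains, fell by 0.69 ± 0.14 (SE; limma adjusted p = 0.00999). With resveratrol 0 of the 6 inhibitors passed against the high-calorie diet (limma). At an unadjusted p under 0.05 stood 3 of them, 1 higher and 2 lower, beside 22.2% of all genes. Among the 3, Cstb had -0.34 ± 0.096 and Kng1 0.51 ± 0.15 (SE; limma adjusted p = 0.0524 and 0.0647). Of 9 other cathepsins tested, only Ctsw, a cathepsin of cytotoxic lymphocytes, passed: it fell on the high-calorie diet by 0.17 (limma adjusted p = 0.0318) and rose with resveratrol relative to it, by 0.28 (limma adjusted p = 0.00760). Among 6 further lysosomal peptidases, 0 passed on the high-calorie diet against the standard diet (limma). At an unadjusted p under 0.05 stood 4 of the 6, 3 higher and 1 lower, beside 27.6% of all genes. Prcp came nearest at 0.15 (limma adjusted p = 0.0793), and the lower one was Napsa at -0.14 (limma adjusted p = 0.0837). Scpep1, a serine carboxypeptidase related to Ctsa, rose with resveratrol, by 0.28 relative to the high-calorie diet and by 0.33 relative to the standard diet (limma adjusted p = 0.00698 and 0.00656).

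**Figure D5:**
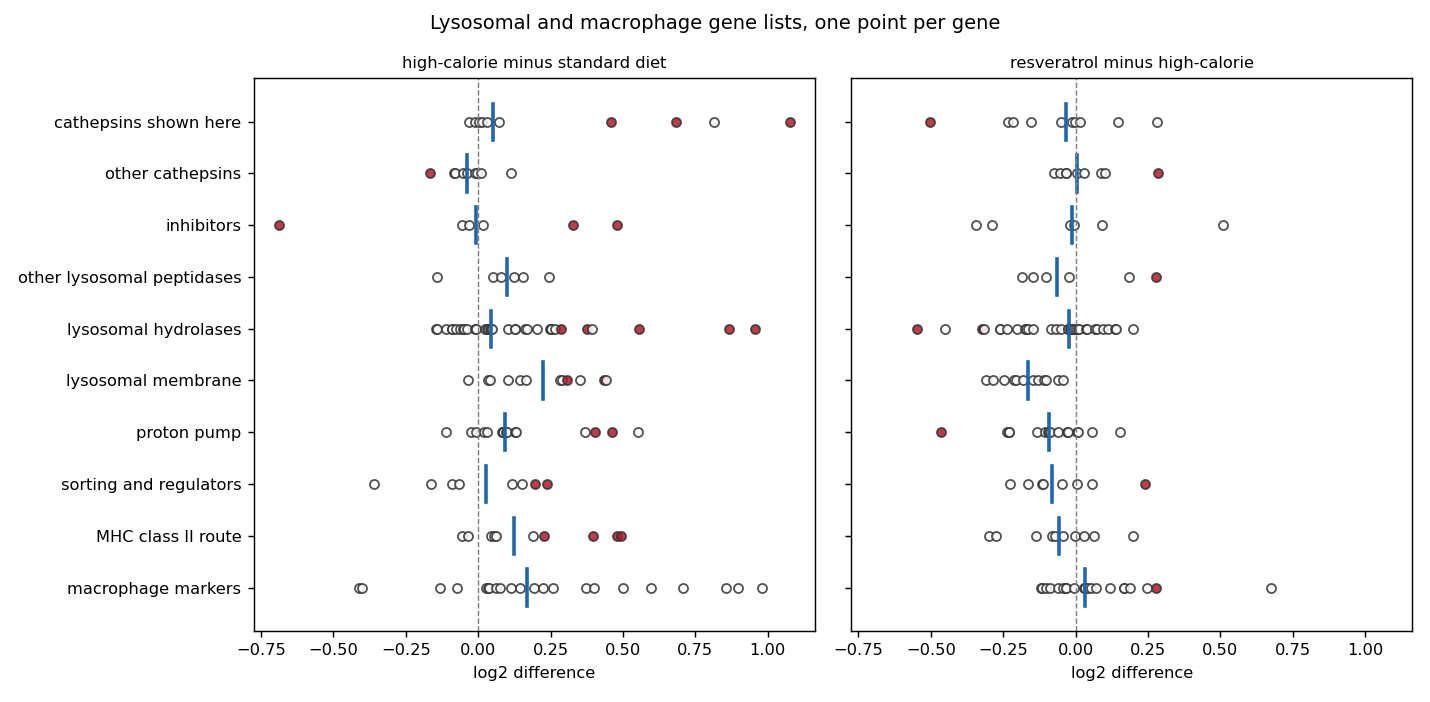
Log2 differences (horizontal axis) of the genes of each list, one point per gene, with high-calorie minus standard diet on the left and resveratrol minus high-calorie on the right; filled points have a limma adjusted p under 0.05 and the blue bar is the list's median. The median of the lysosomal membrane list is 0.22 on the left and -0.16 on the right, and no macrophage marker is filled on the left.

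Markers of other liver cells are given because they moved in the same comparisons. Of all genes tested, 5.37% passed as higher and 4.07% as lower on the high-calorie diet relative to the standard diet. With resveratrol relative to the high-calorie diet 2.22% passed as lower. Of 10 stellate cell markers, 6 rose on the high-calorie diet, led by Col3a1, a fibrillar collagen, at 0.75 ± 0.095 (SE; limma adjusted p = 0.000427). In that comparison 1 fell, Acta2, at -0.19 (limma adjusted p = 0.0179). With resveratrol 4 of the 10 fell relative to the high-calorie diet. Of 10 hepatocyte markers, 3 fell on the high-calorie diet, among them Ahsg, a secreted plasma protein, by 0.74 (limma adjusted p = 0.0207). The list did not move as 1: 7 differences were negative and 3 positive. The largest positive one, named after its value was seen, was Pck1 at 0.80 ± 0.34 (SE; limma adjusted p = 0.145). All 10 hepatocyte markers were among the genes tested in these livers, and their mean log2 ratio was 0.42 to 0.69 with resveratrol, 0.049 to 0.44 on the high-calorie diet and 0.43 to 0.60 on the standard diet. Between the high-calorie and standard diets, 2 of 7 endothelial markers rose, 1 of 16 leukocyte markers fell, and of 6 adipocyte markers 2 rose and 1 fell. Cfd, the adipose-derived complement factor D, had the largest difference of these lists, 2.52 ± 0.31 (SE; limma adjusted p = 0.000339). The adipocyte marker that fell was Retn, at -0.20 (limma adjusted p = 0.0254), and Adipoq, Lep and Plin1 did not pass. The part of these cells in the cathepsin values was not tested.

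The genes whose pattern over the 14 livers was most like that of a called cathepsin were found by the root mean square distance of their log2 ratios, each taken relative to its own standard-diet mean. Nearest to Ctss were C1qc, Aldh1a7 and Lyz1, at distances of 0.21, 0.25 and 0.26, where Ctss itself varied by 0.86. Of these, C1qc is a macrophage marker of the list above, Lyz1 encodes a lysozyme, and Aldh1a7 is an aldehyde dehydrogenase gene. Nearest to Lgmn were Snx10, a sorting nexin, Slc16a1, a monocarboxylate transporter, and Fas, a death receptor, at 0.17, 0.18 and 0.18, where Lgmn varied by 0.55. Nearest to Ctsd were Ptpmt1, a mitochondrial phosphatase, Apmap and the inhibitor gene Cst3, at 0.12, 0.12 and 0.13, where Ctsd varied by 0.34. Apmap rose on the high-calorie diet by 0.53 and fell with resveratrol relative to it by 0.47 (limma adjusted p = 0.00420 and 0.0186), and Cst3 differed by 0.33 and -0.29 (limma adjusted p = 0.0437 and 0.108). The likeness is a description over 14 livers that share the pool and the diets.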

How the data were processed

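Liver RNA of 14 mice was hybridised to 2-colour Agilent arrays, with the animal in Cy3 and a pool of 5 standard-diet livers in Cy5, per the labels. The deposited scanner files give spot intensities made by the authors with Agilent Feature Extraction 7.5.1, per the file headers. A second deposited table holds scores with a mean of 0 and an SD of 1 per array, whose log base and centring are not known, and it served as an alternative.

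Mean and background signals were corrected with normexp (offset 50) and loess-normalized within arrays, with control spots at weight 0, in limma 3.58.1 under R 4.3.3. The brightest probe stood for each gene, and 32677 genes whose liver signal Feature Extraction marked as clear of background on 4 or more arrays were tested. A model with the 3 diets was fitted by lmFit and eBayes, Benjamini-Hochberg adjusted over all genes and called at an adjusted p under 0.05, and was tested on simulated data. The number of arrays limits the precision. Of 41174 probes, 20852 were matched to a current gene. The others were counted as genes under their own names, also in each share of all genes. The probes described only as cathepsin B or as the protective protein were among those.

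The members and the 15 gene lists were chosen with earlier results of these data known. Named genes were all members, in each other list and comparison up to 4 passing genes with the smallest adjusted p or up to 2 with the smallest p where none passed, and the 3 nearest genes of each called member. One gene of the hydrolase list that this rule names is not reported here. The hepatocyte, stellate, endothelial and adipocyte lists are given by counts with examples. Replicate numbers did not pair the livers: the correlations of same-numbered deviations ran from -0.19 to 0.30. Promoter windows came from RefSeq tables of GRCm38.p6. Alternatives covered background, normalization, dim probes, probe choice, weights, batches and omitted livers. The within-day and within-series fits, and the joint omission of standard-diet liver 5 and resveratrol liver 3, were added after seeing the data.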

Additional observations from a re-analysis of the deposited data

Results flagged for a closer look

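Ctsh in standard-diet liver 2 stood apart from the other 4 standard-diet livers, with a log2 ratio of -0.67 where the next lowest was -0.15. It was 1 of 30 combinations of a member and a diet examined in this way, and chance alone gives about 1 in 20 such groups. The low reading of that liver was not limited to Ctsh. The mean log2 ratio of the 10 members was -0.61 there, against -0.26 to -0.13 in the other 4 standard-diet livers. Its array also had the lowest share of probes well above background of all 14, at 77.8%. Without that liver the high-calorie minus standard differences were 0.96 for Ctss, 0.59 for Lgmn and 0.37 for Ctsd, against 1.08, 0.68 and 0.46 with it. Ctsh did not pass in any of the 3 comparisons.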

How the results depend on the processing

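Of the members called, Ctss kept its call against the standard diet in 32 of 36 alternatives, Lgmn in 26 and Ctsd in 18, and the Ctsd call against the high-calorie diet held in 13 of 36; no called difference changed sign. Not all 36 could move a difference. Loess with Aquantile, the filters on dim probes, single probes and the omission of a resveratrol liver left the high-calorie minus standard differences of these 3 genes as they were. So did a trended robust spread, the fit of only the groups compared and the replicate block. Those alternatives could change at most the spread or the adjustment. The mean of a gene's probes could not move Ctss or Lgmn, which have no second probe. For the high-calorie against the standard diet, where 3 members passed, the count was 1 with slide series as a block, 0 with Cy3 brightness as a covariate, 0 within either processing day, and 1 to 4 when single livers were left out. Of all genes, 1874 passed there with slide series as a block and 858 with brightness as a covariate. Within the first and second days 819 and 55 of all genes passed. Ctss lost its call with a trended robust spread (limma adjusted p = 0.0699), with brightness as a covariate (0.0614) and within both days. For resveratrol against the high-calorie diet, where 1 passed, the count was 0 with an offset of 10, processed signals, median centring, Cy3 alone, deposited scores, the mean of probes, single probes, day or series as a block, standard-diet liver 5 and resveratrol liver 3 both left out, and within the first day and either series, and 0 to 1 when single livers were left out. For resveratrol against the high-calorie diet, 52 of all genes passed within the first day, and 0 and 44 within the first and second series. Against the standard diet, the resveratrol count was 0 in every alternative. The cause of these changes was not tested. With the replicate block, 3 members passed on the high-calorie diet, with Ctsc (limma adjusted p = 0.0483) in and Ctsd (0.0712) out, and 0 with resveratrol against it (Ctsd 0.146); since the numbers do not pair the livers, this says nothing about weaker effects.

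Among all genes, 3083 passed on the high-calorie diet, against 3031 with median centring, 948 with Cy3 alone and 417 with deposited scores. With resveratrol against the high-calorie diet 1760 passed, against 120, 84 and 48. Over all alternatives these counts ran from 55 to 6795 and from 0 to 3120, and from 4 to 514 for resveratrol against the standard diet, where 70 passed. Leaving out standard-diet liver 5 and resveratrol liver 3 gave 6672, 1274 and 514, and 4 members on the high-calorie diet. Loess followed by Aquantile leaves ratios as they are.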
